A study of Rattus norvegicus with 4 samples.

Results

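Small RNA reads of 25 to 29 nt are longer than microRNAs (miRNAs) and shorter than most fragments of other RNAs. They are described here as tags, a tag being 1 distinct sequence with its read count. Members were chosen by length and reads: every tag of 25 to 29 nt with no unread base and with 50 or more reads in at least 1 of 4 libraries. This took 984 of the 297892 tags of these lengths, or 0.330%, and 984 of the 9119 tags of every length that pass the same minimum. Since read counts chose the members, their abundance is a description and was not tested. At the limit, 17 tags of these lengths had 50 reads in their best library and 20 had 49. The first 3 inside, in the order of their letters, had 50, 43, 43 and 39 reads, 46, 41, 50 and 39 reads, and 50, 30, 27 and 33 reads in the control, 1 h, 3 h and 24 h libraries, and the first 3 outside had 49, 39, 38 and 28 reads, 49, 12, 40 and 36 reads, and 36, 25, 49 and 24 reads.

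The RNA came from vascular smooth muscle cells of the aorta of Sprague-Dawley rats, cultured with serum and then kept without serum for 48 h. A control library was made from cells given no angiotensin II (Ang II, a hormone of the renin system that makes blood vessels contract), and 1 library each from cells given 100 nM Ang II for 1 h, 3 h or 24 h. The question was how the small RNAs of treated cells differ from those of the control. All groups share the serum depletion; the number of animals and the passage of the cells are not given in the sources used here. There was 1 untreated library in all and none for each time, so effects of Ang II and of hours in culture cannot be told apart. With 1 library a group there is no replicate error and no test of a difference, and all 3 comparisons share the control library. Intervals are at 95% and cover counting error only. Amplified reads are not independent molecules, so the intervals can be too narrow even for that.

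The libraries held 13119417 to 14534892 reads that name a sequence. The smooth muscle markers miR-143-3p, miR-145-5p and miR-21-5p had at least 31759 reads in every library. Of the other markers with a RefSeq sequence, miR-142-5p and miR-223-3p were at 0 in every library, miR-142-3p, miR-451-5p, miR-122-5p and miR-141-3p had at most 8 reads, and miR-200c-3p had 46 to 76. Endothelial and neural markers were not analysed here.

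As background, several kinds of RNA give reads of this size. Box C/D small nucleolar RNAs (snoRNAs) guide 2′-O-methylation of ribosomal RNA and carry a C box near their 5′ end and a D box near their 3′ end. Transfer RNAs (tRNAs) are cut into 5′ and 3′ fragments, and their genes hold an A box, part of the internal promoter, near the 5′ end. The piRNAs of the germ line, which often begin with U (T in these files), are the best known RNAs of this length.

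The sequences that carry most of the reads, or differ most between libraries, are given first. Tags are numbered M1 to M984 by their mean number of reads per 1000000 library reads (RPM), start groups S1 to S475 hold the tags with the same first 18 nt, and overlap groups O1 to O196 join tags with a common stretch of 16 nt. Letters are 5′ to 3′. Capitals mark the C box letters TGATGA and D box letters CTGA, the A box letters GNNNAGNGG, or, in a miRNA, the 3′ bases that do not continue its hairpin.
M1 (26 nt, the most read tag): agcctgTGATGAattcaatttCTGAc
M2 (27 nt, starting 1 base earlier): aagcctgTGATGAattcaatttCTGAc
M6 (26 nt, A18C of M1, counted from the 5′ end): agcctgTGATGAattcactttCTGAc
M9 (26 nt, A13C of M1): agcctgTGATGActtcaatttCTGAc
M19 (29 nt, C and D box letters, near its control level in all libraries): tggagaTGATGAactgactcaacCTGAcc
M48 (28 nt, C and D box letters, lower at each time): gtctcaTGATGAtccccactgccCTGAg
M3 (28 nt, A box letters, lowest at 3 h): ggctttgGTCTAGGGGtatgattctcgc
M4 (29 nt, A box letters, higher at 24 h): tccctgGTCTAGTGGttaggattcggcgc
M14 (29 nt, A box letters, higher at 24 h): gcattgtgGTTCAGTGGtagaattctcgc
M18 (28 nt, A box letters, higher at 24 h): gcatgtgGTTCAGTGGtagaattctcgc
M10 (26 nt, without these letters): cgactcttagcggtggatcactcggc
M7 (25 nt, begins as miR-143-3p): tgagatgaagcactgtagctcTAAA
M38 (26 nt, begins as miR-221-5p and lies in its hairpin): acctggcatacaatgtagatttctgt

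Lengths within the class were not equally filled. Of the 984 members, 260 had 25 nt, 279 had 26 nt, 131 had 27 nt, 162 had 28 nt and 152 had 29 nt. From the control through 1 h and 3 h to 24 h, members held 454370, 323150, 362821 and 331046 reads. These were 3.16% (3.15 to 3.17), 2.46% (2.45 to 2.47), 2.52% (2.52 to 2.53) and 2.28% (2.27 to 2.29) of all reads, so the control was the highest library and the 24 h library the lowest. This order rests on 1 tag: without M1, the most read, the other 983 members had 16641, 14234, 14404 and 15362 RPM, lowest at 1 h, with ratios to the control of 0.855 (0.850 to 0.861), 0.866 (0.861 to 0.871) and 0.923 (0.918 to 0.928). With TMM factors, another scaling, the last 2 ratios became 1.01 and 1.08. All 984 members, M1 included, made up 66.9% to 71.3% of all reads of 25 to 29 nt. In bulk RNA, fewer copies of a tag per cell and fewer cells that carry it cannot be told apart.

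The 26-nt and the 29-nt members moved in opposite ways at 24 h. In that order of libraries, members of 26 nt had 19237, 13795, 14672 and 10030 RPM. Members of 29 nt had 2028, 1779, 1649 and 3762 RPM, and those of 28 nt had 3404, 2760, 2424 and 3909 RPM. The shorter lengths were thus lowest at 24 h, whereas the longest were highest there. The same held for all tags of these lengths with no read minimum: the share of reads at 26 nt was 2.27%, 1.66%, 1.76% and 1.26%, and at 29 nt 0.392%, 0.344%, 0.318% and 0.594%.

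**Figure D1:**
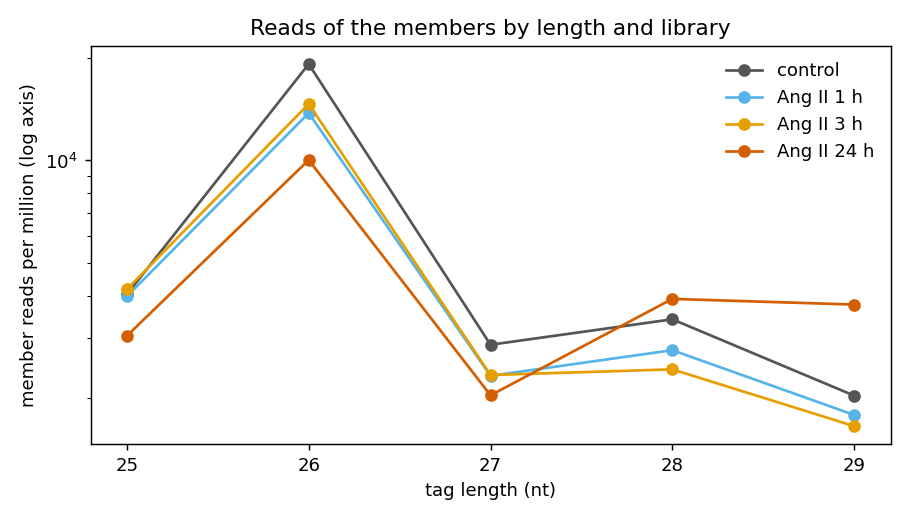
RPM of the members (vertical log axis) at each length from 25 to 29 nt (horizontal axis) in the 4 libraries, 1 line per library. At 26 nt the 24 h library is the lowest with 10030 RPM, and at 29 nt it is the highest with 3762 RPM.

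Reads were spread unevenly over the libraries. There were 467 members with 50 or more reads in each of the 4 libraries, 116 in 3, 98 in 2 and 303 in 1. Of these 303, 85 passed only in the control, 24 only at 1 h, 59 only at 3 h and 135 only at 24 h. A member that passed through 1 library had to be higher there, so these counts describe the choice and not a difference.

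The members' first bases were mixed, and thymine led the distinct tags by less than it does at 20 to 24 nt. By distinct tags, 25.1% began with A, 18.1% with C, 24.1% with G and 32.7% with T. Among the 5292 tags of 20 to 24 nt with the same minimum, where most miRNAs lie, 60.4% began with T, and among the 1088 of 30 to 35 nt 39.8% began with G. By reads, A led in every library, with 61.6%, 55.6%, 57.6% and 44.0% of member reads from the control to 24 h. Most of that came from 1 tag: without M1 the share that began with A was 27.1%, 23.2%, 25.7% and 17.0%. G took 13.6%, 13.8%, 13.3% and 23.3% of member reads, and was highest at 24 h. T took 15.3%, 20.2%, 19.5% and 21.3%.

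The first base also turned with length. At 25 nt 45.4% of members began with T, at 26 nt 43.7% with A, and at 29 nt 48.0% with G. The count at 26 nt includes M1 and 54 single-base variants of it, which begin with A unless changed at base 1. The share at 26 nt thus leans on copies of 1 sequence. The last base was C in 42.2% of the members, which held 79.1%, 73.6%, 72.8% and 74.3% of member reads. Without M1, which ends in C, these shares of reads were 60.4%, 54.4%, 52.3% and 61.9%. At base 10, 32.5% of members had T and 17.7% had A. Shares of tags count each member once, and tags of 1 start group share their first base by construction. With 1 tag per start group, 30.7% began with A and 25.7% with T. Variants of M1 changed within the first 18 nt still count there as starts of their own.

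**Figure D2:**
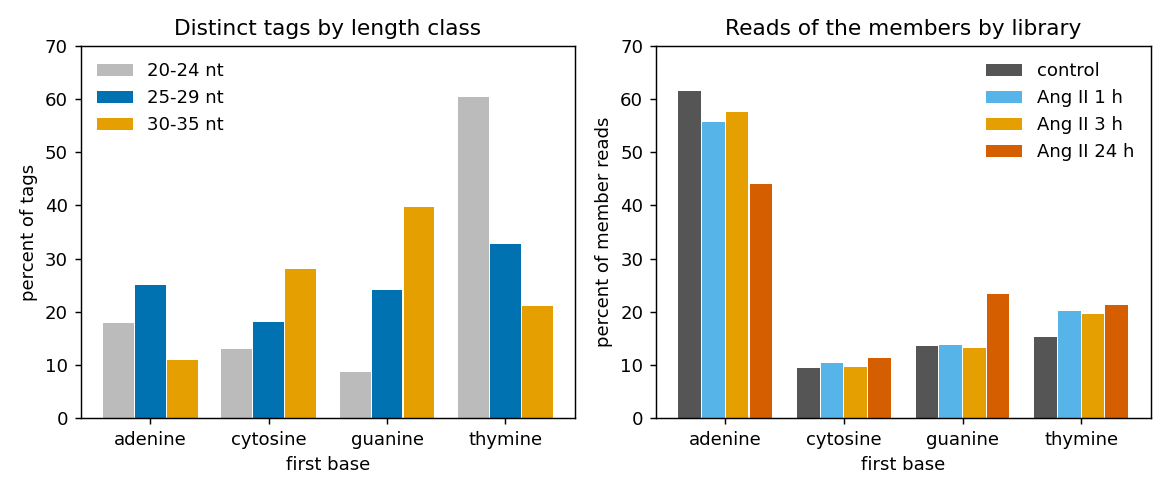
First base of distinct tags in 3 length classes (left, percent of tags with 50 reads in at least 1 library) and of member reads in the 4 libraries (right, percent of reads). Thymine leads at 20 to 24 nt with 60.4% of tags and holds 32.7% at 25 to 29 nt; adenine leads the member reads, from 61.6% in the control to 44.0% at 24 h.

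By their first 18 nt the members fell into 475 start groups, of which 308 had 1 member. The 10 groups with most reads held 64.8% of member reads, and S1, the group of M1, held 43.1%. Joining tags with a common stretch of 16 nt left 196 overlap groups, of which 82 had 1 member. The group with most members was S2, with 55 tags that begin as miR-143-3p. Tags of 1 group share sequence, can come from 1 RNA or from similar genes, and are not replicates of each other.

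The position of each group's length peak separated 3 kinds of member. All tags of 16 to 42 nt with the same start were counted by length class. For 315 of the 475 groups the most reads lay at 25 to 29 nt itself, for 73 at 20 to 24 nt, for 44 at 30 to 35 nt, for 39 at 36 to 42 nt and for 4 at 16 to 19 nt. S1 was the sharpest of the abundant groups, with 99.8% of its reads at 25 to 29 nt. S3, led by M10, had 8.39% there and peaked at 30 to 35 nt. S2 had 0.515% there, its peak being the mature miRNA of 20 to 24 nt.

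The dominant 26-nt tag, M1, was highest in the control and lowest at 24 h. Its reads were 214818 (control), 136415 (1 h), 155829 (3 h) and 107766 (24 h), or 14923, 10398, 10844 and 7414 RPM. All Ang II libraries lay below the control, and the 24 h library lay below the other two. Against the control, the ratios for these times were 0.697 (0.692 to 0.702), 0.727 (0.722 to 0.731) and 0.497 (0.493 to 0.501). No genome was used here, so M1 was not placed on a chromosome, and it did not match a miRNA hairpin or a RefSeq promoter window.

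Its 27-nt neighbour M2, which starts 1 base earlier and ends at the same base, had 12851, 8031, 9243 and 4285 reads. The ratio was 0.686 (0.667 to 0.705), 0.721 (0.701 to 0.740) and 0.330 (0.319 to 0.342). M2 was therefore lower at 24 h than M1 relative to the control. The overlap group O1, which joins 67 members around M1, had 17849, 12295, 12907 and 8621 RPM.

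Much of the variety around M1 was single-base variants of it. There were 54 members that differed from M1 by 1 base and had M1 above them by at least 10 times in reads; together they came to 13.4%, 12.0%, 13.5% and 12.9% of M1's reads in the control, 1 h, 3 h and 24 h libraries. M6 (A18C) had 3.17%, 2.62%, 3.09% and 2.43% of M1's reads, and M9 (A13C) had 2.17%, 1.99%, 2.68% and 2.64%. M17 (A25C), which lacks the D box letters, had 1.39%, 2.03%, 2.04% and 1.77%. Over the 4 libraries, the shares of 35 of the 54 variants, these 3 among them, stayed within 1.5-fold and those of 19 did not. The widest was that of M108 (G24C), which had 1043 reads in the control and 124, 125 and 96 in the Ang II libraries, or 0.486%, 0.0909%, 0.0802% and 0.0891% of M1; it was picked after its values were seen.

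Over all members, 224 differed by 1 base from a tag with at least 10 times their reads. The most frequent change was A to C, in 76 of them, followed by G to T in 55. The changes C to A, C to T and C to G came to 4, 4 and 3. The origin of such tags was not tested.

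The 10 most read 26-nt members were M1, M6, M9, M10, M17, M21, M31, M33, M34 and M38. M6, M9, M17, M31 and M34 were single-base variants of M1. M10 had 3871, 3416, 4393 and 1999 reads, and M21, from an overlapping start, had 2060, 1483, 1931 and 933; both were lowest at 24 h. M33, a miR-143-3p form with added bases, had 880, 1182, 1409 and 746 reads, highest at 3 h. M38, a miR-221-5p form, had 480, 1154, 1579 and 649 reads, and was the only one of the 10 with its lowest value in the control.

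The letters of box C/D snoRNAs sat near the ends of the tags that hold them. A C box followed by a D box was found on the sequenced strand in 88 members, 8.94% of the tags with 53.0% of member reads, and on the other strand in 0. The same letters were in 0.0945% of tags of 20 to 24 nt, 2.57% of those of 30 to 35 nt and 23.5% of those of 36 to 42 nt, so they were more frequent among the longest tags than here. All 88 had at most 3 bases after the D box, and 81 had at most 6 bases before the C box, 59 of them exactly 6. Since 1-base variants of M1 fill much of the 88, the count was also made by overlap group. Leaving out groups led by a 1-base variant of a more read tag left 13 families, of which 10 had 5 or 6 bases before the C box and 13 at most 3 bases after the D box. A match of letters is a description and does not show that the RNA is a snoRNA.

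Summed over the 88 tags, the C and D box class had 18717.5 RPM in the control, and the ratio was 0.705 (0.701 to 0.709) at 1 h, 0.741 (0.737 to 0.746) at 3 h and 0.506 (0.503 to 0.509) at 24 h. Most of this was M1: without O1 the ratio was 0.871 (0.853 to 0.888), 0.944 (0.926 to 0.963) and 0.758 (0.743 to 0.774), where the 3 h ratio became 1.10 with TMM factors. The families did not all go the way of M1. O10, led by M19, had 4530, 4606, 4694 and 4532 reads, with ratios of 1.12 (1.07 to 1.16), 1.04 (0.996 to 1.08) and 0.991 (0.951 to 1.03). With TMM factors the ratios of O10 were 1.27, 1.21 and 1.16. O22, led by M48, had 1666, 860, 1044 and 848 reads, with ratios of 0.566 (0.521 to 0.615), 0.628 (0.580 to 0.679) and 0.504 (0.464 to 0.548). O11 had 1661, 1442, 1801 and 1022 reads and was lower at 24 h alone.

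A feature was called higher or lower where log2((RPM + 1)/(RPM + 1)) against the control passed 1.5-fold and the better library had 100 reads. Among the 12 C/D families with enough reads, 0 were higher at any time, and 1 was lower at 1 h (O22), 1 at 3 h (O22) and 3 at 24 h (O1, O11 and O22). Their median log2 ratio was -0.01, 0.03 and -0.27. Of start groups of every length, 4.96%, 4.51% and 16.1% were higher at these times and 18%, 20.8% and 19.4% lower. Counts this small do not set the families apart from that share. With TMM factors, which moved all ratios up by 0.19, 0.22 and 0.23 on the log2 scale, the ratio of O11 at 24 h was 0.714 and that of O22 at 3 h 0.731, and both passed the limit no longer.

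The A box tags had another time course. The letters GNNNAGNGG were in 134 members on the sequenced strand (13.6% of tags with 10.7% of reads) and in 6 on the other strand. They were in 1.46% of tags of 20 to 24 nt, in 19.7% of those of 30 to 35 nt and in 34.9% of the members of 29 nt. Summed, these members had 2605.46, 2014.11, 1494.62 and 4987.93 RPM, lowest at 3 h and highest at 24 h. The ratio was 0.773 (0.761 to 0.785), 0.574 (0.564 to 0.583) and 1.91 (1.89 to 1.94).

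Overlap groups with these letters split at 24 h. O8, which holds M14 and M18, had 7682, 5666, 4935 and 33898 reads in its 71 members, and its ratio was 0.809 (0.782 to 0.838), 0.644 (0.621 to 0.667) and 4.37 (4.26 to 4.48). O3, led by M4, had 8010, 5708, 4959 and 19880 reads, with a ratio at 24 h of 2.46 (2.40 to 2.52). O2, led by M3, had 18959, 12664, 9543 and 16617 reads, with ratios of 0.733 (0.717 to 0.750), 0.504 (0.492 to 0.517) and 0.868 (0.850 to 0.886). All 3 were lower at 3 h than in the control, and O8 and O3 were higher at 24 h; the 24 h ratio of O2 became 1.02 with TMM factors, and the 3 h ratios of O3 and O8 became 0.722 and 0.749, inside the limit. Of start groups of every length, 4.51% were higher and 20.8% lower at 3 h, and 16.1% higher and 19.4% lower at 24 h. Among the 14 A box families, 6 of 10 with enough reads were lower at 3 h and 0 higher, and 4 of 11 were higher and 1 lower at 24 h. The 4 were O8, O3, O77 and O154, and the 1 was O58, with 338, 261, 176 and 196 reads and a 24 h ratio that became 0.673 with TMM factors. O154 is 1 tag with 53, 39, 40 and 106 reads, and it also carries the D box letters near its 3′ end. Here too a match of letters is a description and does not show that the RNA is a tRNA.

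**Figure D3:**
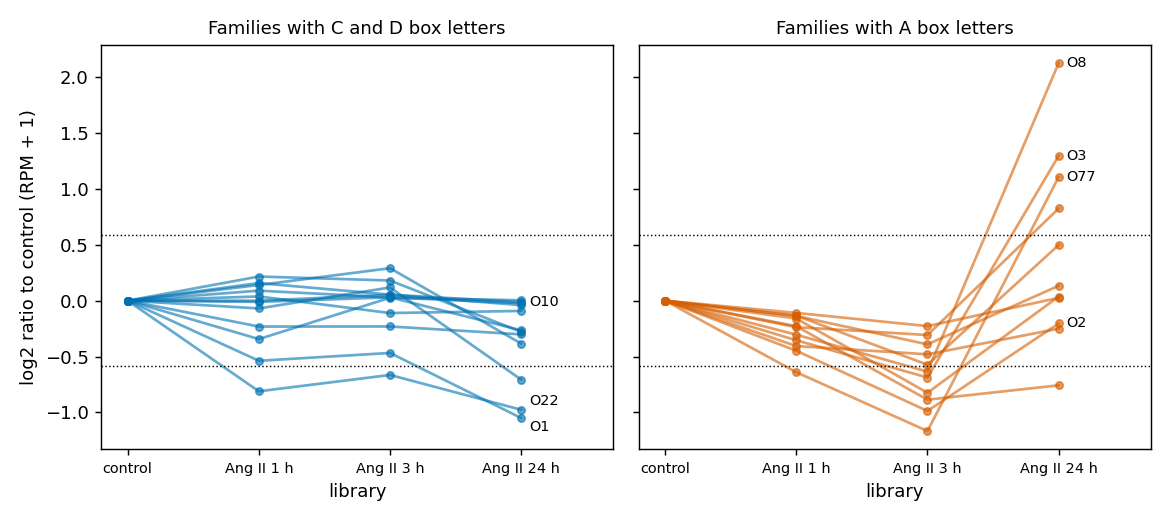
Log2 ratio to the control of RPM + 1 (vertical axis) in each library (horizontal axis) for families with C and D box letters (left) and with A box letters (right) that had 100 reads in 1 comparison, each line 1 overlap group and the dotted lines 1.5-fold. The A box families lie below the control at 3 h and O8, with a 24 h ratio of 4.37, is the highest at 24 h; O1 has a 24 h ratio of 0.483.

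Some members of O8 could be placed on the genome through a RefSeq window. On chromosome 10 of GRCr8, the window of Hes7 holds on its opposite strand the tRNA gene Trnag-gcc2 (54322802 to 54322872, 71 bases). In it, 10 members matched letter for letter, the first starting at base 1 of the gene. These had 498, 498, 413 and 1064 reads, with ratios of 1.10 (0.967 to 1.24), 0.831 (0.727 to 0.948) and 2.12 (1.90 to 2.36). M14 and M18, the most read members of O8, matched the gene but for inner bases that they lack. Below, capitals mark the bases that the tag lacks, placed as near the 5′ end as the letters allow.
Gene letters behind M14: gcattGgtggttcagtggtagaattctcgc
Gene letters behind M18: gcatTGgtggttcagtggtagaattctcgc

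The full 30-nt form had 71, 47, 21 and 564 reads. M14, 1 base shorter, had 1342, 897, 843 and 9425 reads, and M18, 2 bases shorter, had 919, 759, 609 and 7756. Both shortened tags were thus read more often than this full form in every library, and all 3 were highest at 24 h. M18 also equals another 30-nt tag, with GG at the 2 missing bases, which had 2596, 1907, 1600 and 13844 reads and was read more often than M18 in each library, so the source of M18 cannot be told apart. The 24 h ratio was 6.96 (6.57 to 7.37) for M14 and 8.36 (7.81 to 8.96) for M18. In all, 57 members, M18 but not M14 among them, equalled a longer tag with 1 to 3 inner bases left out and were read less than it over the summed libraries. Of these, 45 held the A box letters, which 134 of all 984 members held. Whether these bases were missing in the RNA, in the library or in the processed reads was not tested.

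Other RefSeq windows placed few members. A snoRNA gene, LOC120095397 (chromosome 10, 102406557 to 102406632, 76 bases), held 2 members that start at its bases 43 and 44, with 271, 290, 250 and 218 reads. The 153-base rRNA gene LOC134486900 (chromosome 4, 1711792 to 1711944) held 7 members from base 57 onward, with 545, 462, 596 and 392 reads. LOC134486017, an rRNA gene of the same length on chromosome 2 (1638507 to 1638659), held 3 members, with 257, 212, 260 and 171 reads. Tags that match several copies cannot be given to 1 of them.

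A further abundant set, O7, shares the letters of M10. Its 85 members had 37279, 27685, 29983 and 24606 reads, with ratios of 0.815 (0.802 to 0.828), 0.806 (0.794 to 0.818) and 0.654 (0.643 to 0.664). Within it, groups that start at different bases had different time courses. S3, which begins as M10, had 10990, 8486, 10486 and 9457 reads in its members and stayed within 1.5-fold of the control. At 30 to 35 nt, where this start peaks, it had 118278, 100461, 26818 and 46314 reads, lowest at 3 h. S9 and S43 begin further upstream and stood lower at 3 h and 24 h. To show the shift of start, their leading tags are set beside M10.
M10, leading S3: cgactcttagcggtggatcactcggc
Leading S9: cgatacgactcttagcggtggatcactc
Leading S43: taccgatacgactcttagcggtggat

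S9 had 7305, 5509, 2943 and 3860 reads, with ratios of 0.827 (0.799 to 0.857), 0.404 (0.387 to 0.421) and 0.523 (0.503 to 0.544). S43 had 1621, 980, 322 and 333 reads, with ratios of 0.663 (0.612 to 0.719), 0.199 (0.176 to 0.224) and 0.203 (0.180 to 0.229). S43, S127, S136 and S283, all upstream starts of O7, were among the 5 lowest groups at 24 h. The RNA behind O7 was not matched to a reference table here.

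Members that match miRNA entries were mostly longer forms of shorter tags. There were 213 of them in 39 start groups: 191 begin as a mature miRNA, 21 begin elsewhere in a miRNA hairpin, and 1 lies in an entry named for a snoRNA, Snora58. Of the 39 groups, 36 peaked at 20 to 24 nt. Of the 188 with a hairpin in RefSeq, 19 lay wholly inside it. In the others, the bases from the first difference with the hairpin to the 3′ end were A alone in 30, T alone in 20, A and T in 45 and held C or G in 74. Such a stretch can come from an inner change as well as from added bases, and these were not told apart. Summed, the class had ratios of 1.15 (1.13 to 1.16) at 1 h, 1.13 (1.12 to 1.15) at 3 h and 0.740 (0.729 to 0.751) at 24 h.

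miR-143-3p, abundant in smooth muscle, led the class. Its gene Mir143 lies on chromosome 18 of GRCr8 (57371349 to 57371453, minus strand). The 55 members of S2 had 16580, 20023, 22066 and 14008 reads, highest at 3 h and lowest at 24 h. They made up 0.464%, 0.504%, 0.495% and 0.315% of the reads with this start, and 0 of the 55 lay wholly in the hairpin. let-7b-5p, of the growth-restraining let-7 family, had 23 members with 5780, 4617, 4616 and 3354 reads and a 24 h ratio of 0.575 (0.551 to 0.600). Mature sequences, with the seed in capitals, show that let-7b-5p and let-7c-5p share theirs.
rno-miR-143-3p: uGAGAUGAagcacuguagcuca
rno-let-7b-5p: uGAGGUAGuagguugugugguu
rno-let-7c-5p: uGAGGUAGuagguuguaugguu
rno-miR-221-5p: aCCUGGCAuacaauguagauuuc

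miR-221-5p led 1 of the 3 groups that peaked at 25 to 29 nt and had the largest ratio of all start groups called higher at 1 h. Its 2 members, both wholly inside the Mir221 hairpin (chromosome X, 6023182 to 6023290, plus strand), held 70.2%, 80.2%, 84.5% and 77.8% of the reads with this start. They had 621, 1382, 1838 and 855 reads, lowest in the control. The ratio was 2.44 (2.22 to 2.69) at 1 h, 2.96 (2.71 to 3.25) at 3 h and 1.36 (1.23 to 1.51) at 24 h.

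**Figure D4:**
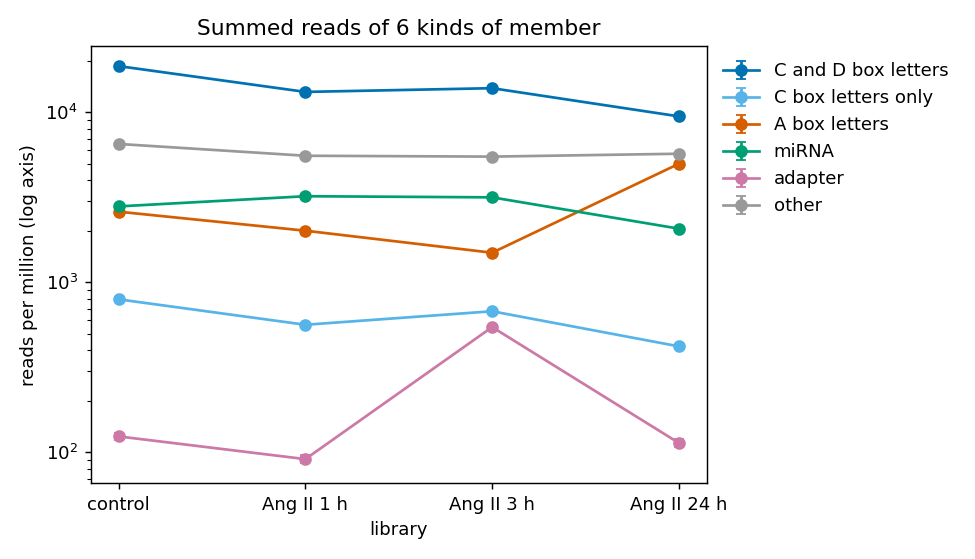
Summed RPM (vertical log axis) of members in 6 kinds, by library (horizontal axis); bars are 95% Poisson intervals and are mostly smaller than the points. The A box tags go from 1494.62 RPM at 3 h to 4987.93 at 24 h, above the miRNA forms, and the C and D box tags are the highest in each library.

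Over all members, fewer tags were higher than lower at each time. At 1 h 10 of the 416 members with enough reads were higher (2.40%) and 65 lower (15.6%); among tags of every length 4.59% were higher and 16.7% lower. At 3 h 40 of 441 were higher (9.07%) and 98 lower (22.2%), beside 5.48% and 23% of all tags. At 24 h 104 of 484 were higher (21.5%) and 159 lower (32.9%), beside 13% and 23.2%. The share of lower members was near that of all tags at 1 h and 3 h and above it at 24 h. The share of higher members was below that of all tags at 1 h and above it at 24 h. At 3 h it was above it with adapter tags counted and below it, at 5.02% (21 of 418), without them. The median log2 ratio of these members was -0.16, -0.20 and -0.30, beside -0.16, -0.18 and -0.20 for all tags. The choice of scale sets the split: with TMM factors the members were 29 higher and 40 lower at 1 h, 63 and 64 at 3 h and 110 and 109 at 24 h.

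Counted by tag, the direction differed between kinds, but overlapping tags and single-base variants are not independent of each other. At 24 h 51 of 75 A box members were higher and 3 lower, whereas 34 of 54 C and D box members were lower and 0 higher. Of the miRNA forms 3 of 94 were higher and 37 lower, and of the members without C box, A box, miRNA or adapter letters 50 of 229 were higher and 67 lower. Without O1, 11 of 28 C and D box members were lower at 24 h and 0 higher. By family, 3 of 12 C and D box families were lower at 24 h, and of 11 A box families 4 were higher and 1 lower. Beside these, 16.1% of start groups of every length were higher at 24 h and 19.4% lower. The A box members with enough reads were 39 at 1 h, 38 at 3 h and 75 at 24 h. A member with enough reads in the 24 h library alone had more reads there by the choice, which sets its direction in part. At 3 h 27 of 38 A box members were lower and 0 higher, with 15 lower under TMM factors. With TMM factors the miRNA forms lower at 24 h were 24 and the members without these letters 53 higher and 41 lower. Of the 40 members higher at 3 h, 19 were adapter tags. In all, 28 members hold 12 or more bases of the 3′ adapter, and these had 1788, 1198, 7844 and 1651 reads, highest at 3 h. This holds for tags of 25 to 29 nt. For the adapter group S27, tags of 36 to 42 nt with the same start had 8004, 6232, 37 and 5544 reads, lowest at 3 h.

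**Figure D5:**
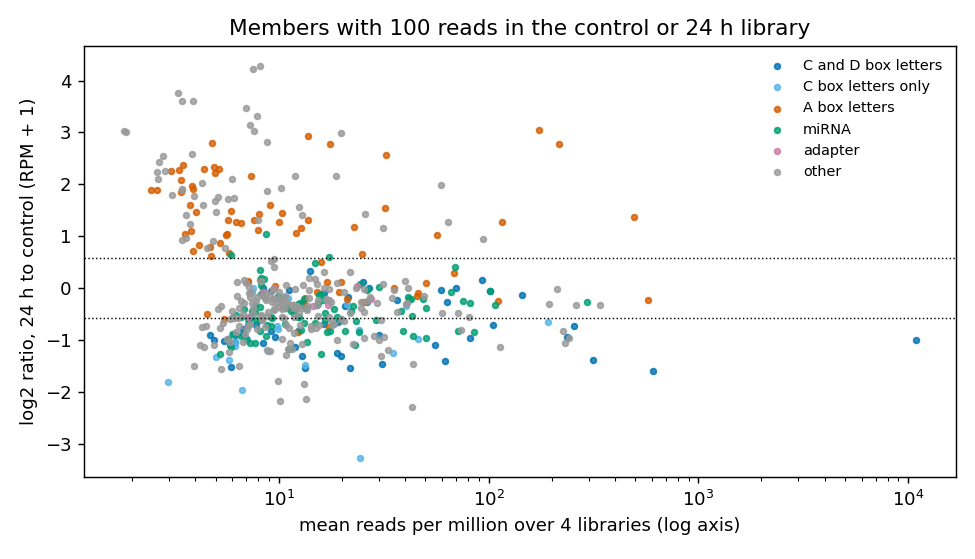
Log2 ratio of RPM + 1 at 24 h to the control (vertical axis) against mean RPM (horizontal log axis) for the 484 members with 100 reads in either library, coloured by kind; dotted lines are 1.5-fold. The 51 A box members that were higher lie above the upper line, and M1, the point with the highest mean RPM, lies at -1.01.

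The same rule was applied to the start groups, which still count overlapping starts apart: O1 holds 41 of them, O8 37 and O7 19. At 1 h 5 of 260 groups were higher and 51 lower, beside 4.96% and 18% of the start groups of every length. At 3 h 10 of 262 were higher and 69 lower, beside 4.51% and 20.8%. At 24 h 68 of 304 were higher and 97 lower, beside 16.1% and 19.4%.

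The 5 groups with the largest rise at 24 h on the log2(RPM + 1) scale had few reads in the other libraries. S205 had 8, 9, 15 and 511 reads, S218 had 9, 5, 12 and 448, and S313 had 2, 4, 10 and 240; all 3 belong to O95. S369 had 0, 4, 6 and 182 reads and S335 had 4, 6, 4 and 212, both in O64. The 24 h library alone was high for all 5, and only there did they reach the minimum of 50 reads. Their direction at 24 h was thus set by the choice. They were also picked as the largest rises, so the ratios are a description only. S205 was 63.3-fold (31.9 to 147) above the control, and S369 at least 60.1-fold against a floor of 3 reads in the control library, where the interval of the ratio begins at 48.4. The leading tags of S205 and S369 are shown because they differ most.
Leading S205: tgcggtgagccttgaagcctagggcgc
Leading S369: gaactttgaaggccgaagtggagaaggg

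At 3 h the largest rise on the log2(RPM + 1) scale was that of S71, with 151, 118, 1564 and 96 reads and a ratio of 10.4 (8.77 to 12.3). Its tags carry the C box letters near the start, and longer tags with the same start were far more numerous, with 185939, 86056, 126360 and 95591 reads at 36 to 42 nt. The longer forms were thus not higher at 3 h. The next 4 were adapter groups (S27, S72, S104 and S128), highest at 3 h as well. Tags of 36 to 42 nt with the same starts were lowest at 3 h in each of the 4 groups.
Leading S71: gggaaaTGATGAtgcctatgactgct

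The 5 largest falls at 3 h were those of S43, S127, S316, S103 and S140. S316, a single-base variant of M3 (G15T), had 124, 43, 33 and 49 reads and S140 had 431, 110, 147 and 218, both below the control at each time. S103 had 226, 137, 70 and 899 reads, lowest at 3 h and highest at 24 h. S212, led by a single-base variant (G15T) of an O7 tag, had 212, 102, 116 and 54 reads. S212 and S283, a group of O7 with 140, 61, 59 and 37 reads, joined S43, S127 and S136 at 24 h.

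At 1 h the 5 groups that were higher were S32, the miR-221-5p forms, and S230, S276, S222 and S77. S77 had 410, 572, 328 and 338 reads, and the ratio of S32 was the largest. The 5 largest falls at 1 h were those of S70, S140, S139, S109 and S36. S36 had 556, 192, 822 and 2478 reads, S70 had 410, 101, 487 and 965, and S139 had 169, 49, 218 and 479: these 3 groups of O21 were lowest at 1 h and highest at 24 h. S109, led by a single-base variant (A13C) of M6, had 595, 200, 226 and 218 reads.

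S8, the most read group that peaks at 25 to 29 nt and has neither C box, A box nor miRNA letters, stayed within 1.5-fold of the control. It had 5827, 4560, 5358 and 4654 reads, with ratios of 0.859 (0.826 to 0.893), 0.921 (0.887 to 0.956) and 0.791 (0.761 to 0.822). It carries the D box letters near its 3′ end without the C box letters. In all, 181 members had the D box letters with at most 3 bases after them (18.4%, against 3.21% of tags of 20 to 24 nt 10.6% of those of 30 to 35 nt and 17.2% of those of 36 to 42 nt), and 6 had them so on the other strand.
Leading S8: tctctgtgctgattgtcatgttctgatc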

How the data were processed

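Small RNA libraries were sequenced from 4 cultures of rat aortic smooth muscle cells, 1 library a group. The deposited files give a raw read count for each distinct sequence, with no normalization. Novoalign and rn4 are named in the submitters' processing notes, with no role; how reads were trimmed is not stated there. A row of reads that name no sequence (5.13% to 7.07% of each file) was left out.

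Members and lists were chosen with earlier results of these data known. Counts were scaled to 1000000 of the 13119417 to 14534892 reads per library, and compared as log2 ratios with 1 RPM added; a feature was called past 1.5-fold with 100 reads in the higher library. Intervals are exact Poisson for levels, Clopper-Pearson for shares and exact binomial for ratios. Letters were searched on both strands. miRNA and gene matches used 419 hairpins, 724 mature sequences and 33469 promoter windows of RefSeq (GRCr8).

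Named are the 10 most read 26-nt members, the 12 most read start groups, the 5 largest rises and falls at each time, and tags at the limit; families and variants were named after their values were seen. Alternatives were other scalings (TMM from edgeR 4.0.16 in R 4.3.3), read minimums, limits, lengths and groupings. Scripts ran under Python 3.11.15 with scipy 1.17.1, matplotlib 3.10.9, pandas 2.3.3 and numpy 2.4.6, and the calls were tested on simulated data.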

Additional observations from a re-analysis of the deposited data

Results flagged for a closer look

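For 16 start groups of the 475 the size rule was passed in one direction at 1 time and in the other at a later time. The same count was not made for start groups of every length, so whether 16 is many or few was not tested. Several share sequence and are not independent: S14, S16, S17, S82 and S114 lie in O8. Likewise S36, S70, S119 and S139 lie in O21, and S149, S168 and S181 in O74. The 3 comparisons share the control library, each group has 1 library, and the difference between times was not tested. With TMM or median-of-ratios factors 10 of the 16 kept both calls, and S7, S14, S16, S17, S71 and S114 kept 1. Values are log2 ratios of RPM + 1 to the control. Lower at 3 h and higher at 24 h were S7 with -0.73 and 1.36, S14 with -0.64 and 2.41, S16 with -0.66 and 2.86, and S17 with -0.64 and 1.13. The same order was seen for S82 with -0.92 and 2.12, S103 with -1.51 and 1.91, S114 with -0.73 and 2.69, and S173 with -1.11 and 1.06. Lower at 1 h and higher at 24 h were S36 with -1.34 and 2.11, S70 with -1.76 and 1.19, S139 with -1.43 and 1.41, S149 with -0.99 and 1.55, S168 with -1.20 and 1.51, and S181 with -0.79 and 1.73. S119 was lower at 1 h with -1.25 and at 3 h with -0.67, and higher at 24 h with 2.99. S71 went the other way, with 3.26 at 3 h and -0.60 at 24 h.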

How the results depend on the processing

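No paired analysis was possible because each group has 1 library. Counts of members called are given as higher and lower. At 1 h they were 29 and 40 with TMM factors, 24 and 43 with median-of-ratios factors, 22 and 146 with a minimum of 50 reads, 3 and 19 with 300, 1 and 22 with 10 RPM added, and 2 and 22 at 2-fold. At 3 h they were 63 and 64 with TMM factors, 69 and 202 with 50 reads, 19 and 42 with 300, and 26 and 38 at 2-fold, and 41 were lower with 10 RPM added. At 24 h they were 186 and 290 with 50 reads and 35 and 55 with 300, and 63 were lower with 10 RPM added and 65 at 2-fold. Merged by start, 5, 10 and 68 were higher at the 3 times and 97 lower at 24 h. Against the 1 h library 37 were lower at 3 h and 103 at 24 h. After the data were seen, 3 more settings were added. Without adapter tags 21 were higher at 3 h; without single-base variants 24 were lower at 1 h and 95 at 24 h; merged by overlap, counts were 3 and 16, 5 and 24, and 22 and 45. Fewer features and stricter limits lower such counts by construction; for the other settings the cause was not tested.

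Shares of reads in the control, 1 h, 3 h and 24 h libraries were 3.36%, 2.64%, 2.70% and 2.46% with 20 reads, 2.99%, 2.32%, 2.38% and 2.13% with 100, 3.08%, 2.40%, 2.45% and 2.18% with a mean of 50, and 4.43%, 3.55%, 3.60% and 3.41% with no minimum. They were 2.55%, 1.89%, 1.94% and 1.60% at 26 to 28 nt and 6.16%, 5.66%, 5.78% and 5.30% at 24 to 30 nt, and 3.17% in the control over reads without an unread base. The control was highest and 24 h lowest in each. The share of reads beginning with A was 51.2%, 46.2%, 48.2% and 37.0% with no minimum, 70.3%, 65.8%, 68.3% and 52.2% with 1 tag per start, and 25.02%, 21.4%, 23.9% and 15.7% without S1. Of tags, 30.7% began with A and 25.7% with T with 1 tag per start, and 29.4% with T with no minimum. The 10 largest groups held 67.0%, 64.2% and 63.5% of reads by the first 15, 20 and 22 nt, and 80.6% as overlap groups, of which there were 196. Over the log2 ratios of named tags and groups, 541 kept the call, 31 lost and 16 gained it. In 22 of the 541, none called, the sign changed; in the 31 and 16 it changed in 0. Of summed kinds, 5 of 27 ratios crossed 1 with TMM factors: those of all members without M1 at 3 h (1.01) and 24 h (1.08), C and D box tags without O1 at 3 h (1.10), adapter tags at 24 h (1.07) and tags of no named kind at 24 h (1.03). Of summed overlap groups, 22 of 123 ratios crossed 1, among them O10 at 24 h (1.16) and O11 at 1 h (1.08).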
